A study of Arabidopsis thaliana with 24 samples.

Results

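Among the genes of Arabidopsis thaliana that the array annotation gives only by a locus ID, 12 probe sets of 11 genes stood clearly higher in the green parts of soil-grown seedlings than in any other sample set measured beside them. A probe set is the group of short probes on the array that reports 1 transcript. The members were chosen from their own values: the set mean of log2(intensity + 7) in set 7, the soil seedlings, had to exceed that of each of the other 7 sets by at least 1.5, and the highest set mean of the raw intensities had to reach 60. Of 22746 probe sets other than controls, 11933 were annotated to 1 gene given as a locus ID alone, 5017 of these reached the floor of 60, and 12 met the margin. Since 2 of the 12, 246573_at and 246603_at, report the same gene, AT1G31690, the members are not 12 independent genes. The comparison of set 7 with the other sets is therefore a description, given with no test.

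The 24 one-colour arrays held biotin-labelled total RNA of accession Col-0, with no mutation named, in 8 sets of 3 arrays called A, B and C, and all plants grew in continuous light. Set 7 came from soil, at 23 °C and a relative humidity of 65%, and consists of what the labels call the green parts of seedlings. Sets ATGE_101, 100, 97 and 96 hold the same labelled tissue of seedlings raised at 20 °C on a medium labelled 0.5x GM. In sets ATGE_101 and 97 it held 5% sucrose, and in sets 100 and 96 it held none. A note on sets 97 and 96 likens most of their plants to 7-day-old plants of set 7, and sets ATGE_101 and 100 carry no such note. Sets 22, 24 and 23 are whole plants on soil at 23 °C and 65% humidity, taken past the transition and short of bolting, and only the set number separates their labels, which speak of developmental drift. Whether a set's arrays stem from separate cultures is not given in the labels, so the p-values reflect no more than the spread among these samples.

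The green parts of a young seedling are the cotyledons, the hypocotyl and the first true leaves. In light these organs build chloroplasts and can store anthocyanins, red to purple flavonoid pigments, in their outer cell layers. Sucrose in a growth medium serves plants both as a carbon source and as a signal that changes the expression of many genes. Nothing in the annotation used here names the products of the 11 member genes, so they are called by locus ID and no role is given to them.

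The array medians lay between 35.4 and 43.1 at a common trimmed mean, and arrays of the same set correlated at r of 0.976 or more. The label of green tissue was checked with light-harvesting and photosynthesis genes, of which 2 of 24 listed were measured. A listed gene counts as measured only if a probe set was annotated to it alone. Since 8730 probe sets had no gene annotated and 503 had several, a gene not counted may still be on the array. LHCB4.1, a chlorophyll-binding antenna protein of photosystem II, had a mean intensity of 4599 in set 7. It averaged 3286 to 3910 over the medium sets and 5045 to 5394 over the whole-plant sets. RCA, the activase of Rubisco, averaged 4762 in set 7, 3048 to 3632 over the medium sets and 4221 to 4651 over the whole-plant sets. Of 16 root markers 3 were measured. Their summed intensity was 717 to 809 on the arrays of set 7, 990 to 2773 on those of the 4 medium sets and 27.4 to 85.1 on those of the whole plants. PYK10, a beta-glucosidase of endoplasmic reticulum bodies, averaged 747 in set 7, 1000.4 to 2644 over the medium sets and 12.6 to 34.4 over the whole-plant sets. The root-hair expansins EXPA7 and EXPA18 had set means below 22.9, the 40th percentile of all values, in every set. Of 20 seed markers 2 were measured, with a summed intensity of 9.98 to 13.4 in set 7, 16.1 to 156 on medium and 12.3 to 22.6 in whole plants. The high end on medium came from ICL, isocitrate lyase of the glyoxylate cycle. It averaged 131 in set 96 and 29.2 in set 97, but 1.67 in set 100 and 1.21 in set ATGE_101. The other, OLEO3, had set means below 22.9 in every set. The 3'/5' ratio of the GAPDH control, a measure of RNA integrity, was 0.897 to 0.984 in set 7, 1.11 to 1.59 on medium and 1.12 to 2.81 in whole plants. That of the ubiquitin control was 3.67 to 4.35 in set 7, 1.79 to 2.76 on medium and 2.88 to 4.11 in whole plants, and that of actin was 5.36 to 6.59 in set 7, 2.26 to 8.94 on medium and 7.37 to 11.5 in whole plants. The part of these differences in the levels below was not tested. In bulk tissue, fewer cells of a type and less RNA per cell cannot be told apart.

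AT4G14090 had the widest margin over the next set, 3.21 on the log2 scale. Its intensity was 325, 326 and 308 on arrays A, B and C of set 7. It lay between 1.13 and 12.4 on the 12 medium arrays, with a median of 6.77, and between 13.7 and 42.5 on the 9 whole-plant arrays, with a median of 23.3. The lowest array of set 7 was thus 7.23 times the highest of all others, and on the medium arrays the gene lay near the floor of the table.

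AT1G31690 came next, and both of its probe sets ordered the soil sets alike, as 7, 23, 22 and 24 from high to low. Probe set 246573_at read 414, 382 and 315 in set 7, against 0.472 to 2.29 on medium (median 0.959) and 19.2 to 90.8 in whole plants (median 53.9). Probe set 246603_at read 687, 633 and 621 in set 7, against 11.1 to 29.9 on medium (median 15.8) and 97.5 to 329 in whole plants (median 153). Its transcript was thus high in soil seedlings, intermediate in whole soil plants and lowest on medium, with no overlap between the 3 kinds of sample for either probe set. The margins were 2.39 and 1.69.

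AT1G01320 had a margin of 2.34. Its member probe set, 261054_at, read 481, 419 and 344 in set 7, against 29.1 to 53 on medium (median 45.5) and 57.5 to 82.8 in whole plants (median 75.2). A second probe set of the gene, 261053_at, missed the rule with a margin of 1.35, although it too was highest in set 7. It averaged 1348 ± 33.7 in set 7 (SD, n = 3), 308 to 375.6 over the medium sets and 494 to 524 over the whole-plant sets.

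AT2G23910 read 337, 311 and 336 in set 7, against 19.1 to 58.4 on medium (median 38.9) and 40.5 to 103 in whole plants (median 52.9), with a margin of 2.01. AT3G21300 read 114, 141 and 119 in set 7, against 4.32 to 29.9 on medium (median 19) and 16.2 to 35.7 in whole plants (median 30.1). Its margin was 1.84, and its medium and whole-plant arrays overlapped over most of their range. AT1G23205 read 260.04, 311 and 286 in set 7, against 27.9 to 55.1 on medium (median 43) and 49 to 134 in whole plants (median 68.8), a margin of 1.71.

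AT5G62210 read 333, 424 and 406 in set 7, against 13.9 to 123 on medium (median 50.2) and 68.1 to 162 in whole plants (median 113). AT1G60590 read 372, 400.3 and 362 in set 7, against 19.9 to 59.8 on medium (median 34.3) and 59.2 to 164 in whole plants (median 80.5). For both, set 7 lay above all other arrays, and the highest medium array lay above the lowest whole-plant array. The margins were 1.67 for AT5G62210 and 1.65 for AT1G60590.

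AT4G12830 was the member whose other sets were most alike. It read 361, 337 and 315 in set 7, against 58.8 to 108 on medium (median 103) and 57.5 to 119 in whole plants (median 98.8), and the next set was 97 with a mean of 105. The means of the 7 other sets lay between 75.5 and 105, so set 7 stood apart from sets of similar level.

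AT1G06000 and AT2G27420 were the members closest to the threshold. AT1G06000 read 730.5, 778 and 692 in set 7, against 34.2 to 135 on medium (median 78.5) and 147 to 297 in whole plants (median 198), a margin of 1.58. AT2G27420 read 167, 151 and 126 in set 7, against 9.53 to 29 on medium (median 16) and 9.31 to 79.9 in whole plants (median 24), a margin of 1.53. For AT2G27420, the arrays on medium and of whole plants overlapped.

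**Figure D1:**
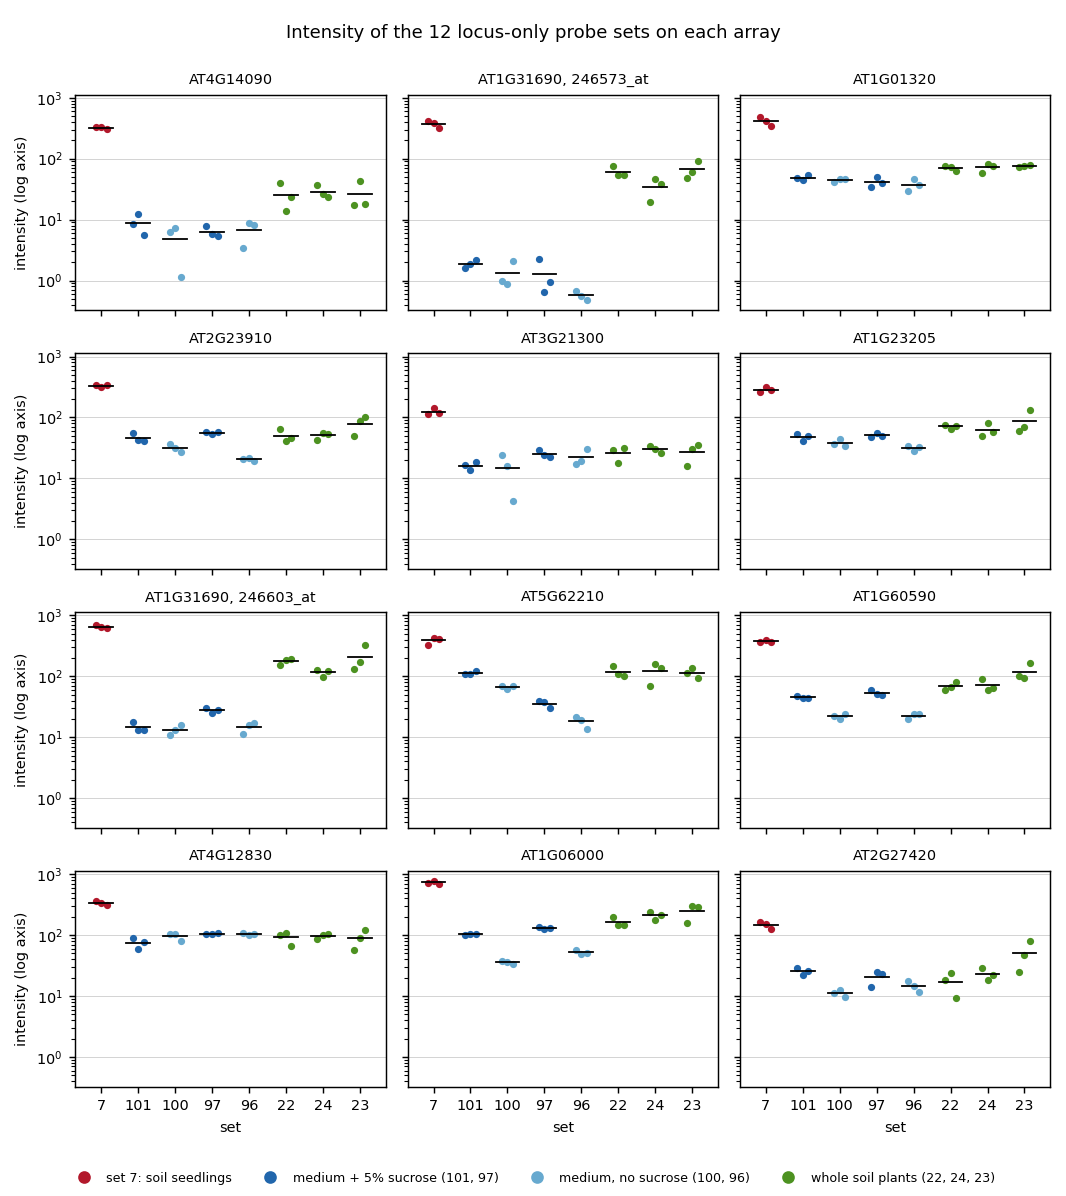
Intensity of the 12 probe sets on each of the 24 arrays (vertical log axis), with sets along the horizontal axis, 1 point per array and a black line at each set mean (n = 3 arrays). In all 12 panels the 3 points of set 7, at the left, lie above the other 21, and the levels on medium fall furthest below it for AT1G31690.

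The 12 members were the upper end of a continuous distribution and not a separate class. Set 7 was the highest of the 8 sets in 1560 of the 5017 locus-only probe sets above the floor (31.1%). A margin of 1 was reached by 80, of 1.5 by 12 and of 2 by 4. Just inside the threshold were AT4G12830 (1.62), AT1G06000 (1.58) and AT2G27420 (1.53), and just outside AT3G23940 (1.49), AT1G56050 (1.48) and AT3G59040 (1.47). The median margin of the 5017 was -0.36. The same margin and floor with another set on top found 2 locus-only probe sets for set ATGE_101, 0 for set 100, 2 for set 97, 5 for set 96 and 0 for each of sets 22, 24 and 23. Sets 22, 24 and 23 differ in the labels by number only, which leaves each little room to exceed the others. The medium sets have close partners too, and set 7 has none, so these counts cannot be compared with the 12.

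For all 12 members, every array of set 7 lay above all 21 other arrays. That held for 17.7% of all 15471 probe sets tested, and since the rule used this contrast nothing is read from it. The median difference of the members between set 7 and another set was smallest against set 23 (1.80) and largest against set 96 (3.62). Set 23 was the next highest set for 8 members, set 24 for 2, and sets 22 and 97 for 1 each. The lowest set was set 100 for 6 members, set 96 for 5 and set ATGE_101 for 1.

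**Figure D2:**
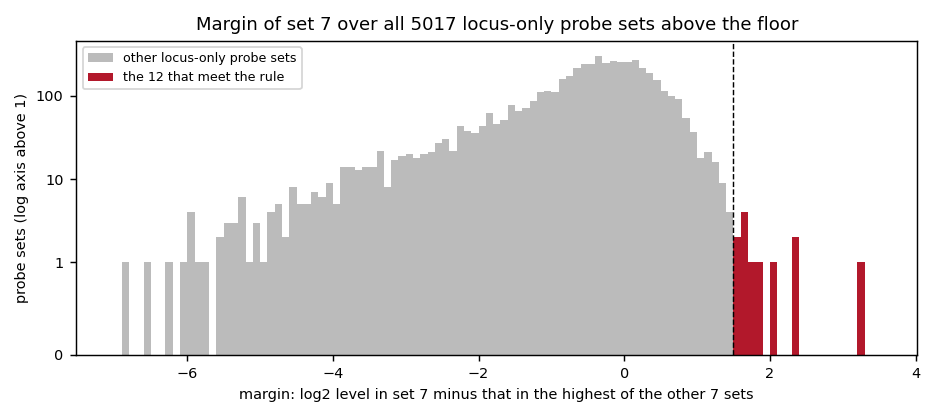
Number of locus-only probe sets (vertical axis, logarithmic above 1) by their margin, the log2 level in set 7 minus that in the highest of the other 7 sets (horizontal axis), for the 5017 above the floor. The dashed line marks the margin of 1.5, and the 12 members in red continue the right tail up to 3.21.

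Around the 11 genes, 23 probe sets report a gene within 2 places on the chromosome in the TAIR10.1 gene order. Their margins lay between -1.29 and 0.36 with a median of -0.32, and 8 of them reached the floor of 60 in some set. That 0 of them had a margin of 1.5 is not read as a difference, since only 0.239% of the 5017 locus-only probe sets above the floor had one. Both measured probe sets of AT1G31710, the gene next to AT1G31690, had margins of -0.14 and 0.29.

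Of the 959 probe sets above the floor whose gene has a symbol, 6 met the same rule. So did 3 of the 248 annotated to several genes and 20 of the 5282 with no gene annotated, which are not described here. How common flavonoid or plastid genes are among the 959 was not counted, so the 6 with a symbol are given as single genes. DFR, dihydroflavonol reductase of anthocyanin synthesis, was the only gene of 10 on the light and flavonoid list with a probe set annotated to it alone. It read 627, 676 and 649 in set 7, against 11.3 to 38.2 on medium and 31.5 to 73.9 in whole plants. UF3GT, a glycosyltransferase of anthocyanins, averaged 349.6 ± 20.1 in set 7, 12.5 to 15.8 over the medium sets and 23.2 to 27.1 over the whole-plant sets. AT5MAT, which adds malonyl groups to anthocyanins, averaged 133 ± 7.73 in set 7 and at most 14.1 in another set, and UGT78D2, a flavonoid 3-O-glucosyltransferase, averaged 424 ± 8.77 and at most 133. The margins were 3.57 for DFR, 3.40 for UF3GT, 2.75 for AT5MAT and 1.68 for UGT78D2.

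The mean of rpoB, the beta subunit of the plastid-encoded RNA polymerase, was 845 ± 112 in set 7 and at most 141 elsewhere. Cpn60beta2, a subunit of the plastid chaperonin, averaged 2344 ± 57.2 in set 7 and at most 677 elsewhere.

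**Figure D3:**
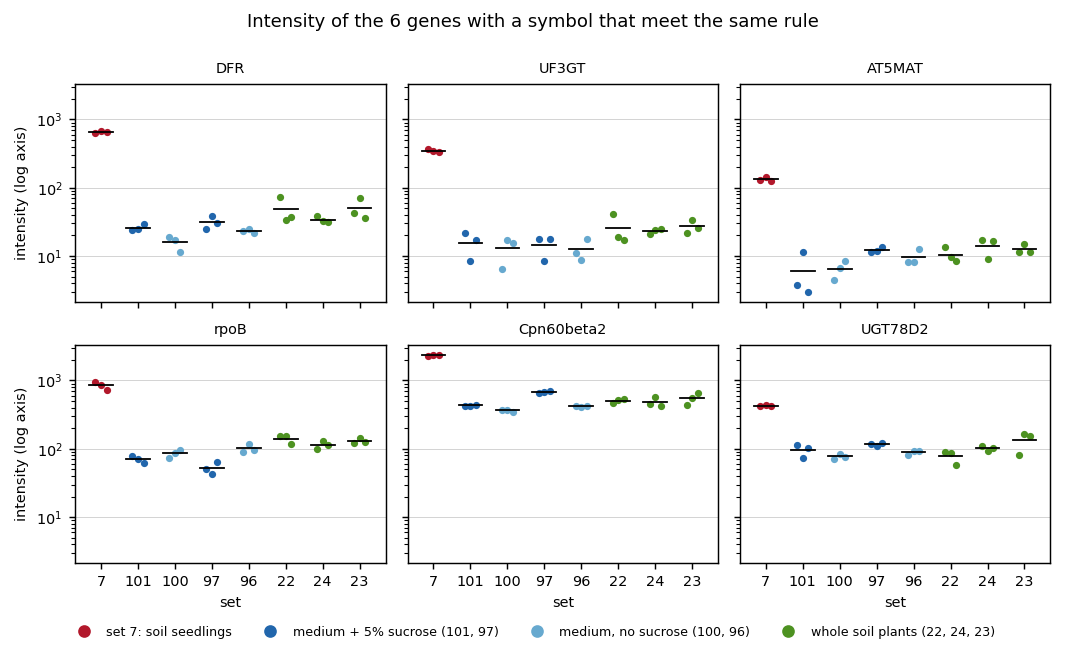
Intensity of the 6 genes with a symbol that meet the same rule on each of the 24 arrays (vertical log axis), by set, with 1 point per array and a line at each set mean (n = 3 arrays). DFR, UF3GT and AT5MAT lie far below set 7 in all other sets, and Cpn60beta2 keeps a mean of 364 or more in every set.

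The comparisons that follow leave out set 7, whose level chose the members. The rule also set an upper limit on each of the other 7 sets relative to set 7, so these arrays had a part in the choice. The limit acts on the highest of the 7, which was set 23 for 8 members. Differences among the 7 sets are thus not fully independent of the choice. The first comparison set the 4 medium sets against the 3 whole-plant sets. Of the 12 members 11, from 10 genes, were lower on medium and 0 were higher (limma, adjusted p under 0.05). Of all 15471 probe sets tested, 39.2% were called lower and 30.4% higher in this comparison. The median difference of the members was -0.92 on the log2 scale, against -0.05 over all probe sets tested. Substrate, temperature, tissue and stage all differ between these groups and cannot be told apart.

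Both probe sets of AT1G31690 showed the lowest values, with differences of -2.85 (95% interval -3.08 to -2.61, adjusted p = 2.5e-15 by limma) and -2.81 (-3.04 to -2.58, adjusted p = 3.1e-15). Since the medium arrays of 246573_at were all at 2.29 or below, under the pseudocount of 6.75 that was added before taking logs, the difference understates that gene's ratio. AT1G06000 differed by -1.41 (-1.59 to -1.22, adjusted p = 8e-12) and averaged 80.7 ± 40 on the 12 medium arrays, against 208 ± 57.3 on the 9 of whole plants (SD). AT4G14090 differed by -1.29 (-1.60 to -0.97, adjusted p = 1.7e-07). All its medium arrays were below 22.9, and its difference depends on the setting, from -1.77 to -0.65 over the alternatives, as that of 246573_at does, from -4.17 to -1.48. For these 3 genes and AT1G01320, which differed by -0.68, no medium array reached the lowest whole-plant array. That separation held for 5 of the 12 probe sets and for 8.22% of all tested.

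AT1G60590 fell by 1.15 on medium (adjusted p = 1.6e-10), with 1 medium array, at 59.8, above the lowest whole-plant array, at 59.2. AT5G62210 fell by 1.15 as well (adjusted p = 1.4e-08), but the medium sets were not alike. Its mean was 113 ± 8.37 in set ATGE_101, 66.3 ± 4.26 in set 100, 35.7 ± 4.41 in set 97 and 18.1 ± 3.79 in set 96, against 118 ± 24.7, 122 ± 48.7 and 114 ± 21.3 in sets 22, 24 and 23. Set ATGE_101 thus lay within the range of the whole plants, and the other 3 medium sets had lower means. AT1G23205 fell by 0.69, AT2G23910 by 0.57, AT2G27420 by 0.46 and AT3G21300 by 0.42 (adjusted p = 7e-06, 2.7e-05, 0.0068 and 0.017, limma). For these 4 genes the arrays of both groups overlapped, and the alternatives gave -0.59 to -0.29 for AT2G27420 and -0.53 to -0.24 for AT3G21300. AT4G12830 differed by 0.05 (-0.16 to 0.26, adjusted p = 0.68), the one member that was not called.

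The second probe set of AT1G01320, 261053_at, was lower on medium by 0.56 (adjusted p = 8.5e-10), close to the -0.68 of the member probe set. Among the 6 genes with a symbol, DFR fell by 0.70, rpoB by 0.72, UF3GT by 0.64 and AT5MAT by 0.34 (adjusted p = 1.8e-05, 6.4e-08, 0.00058 and 0.0063). Cpn60beta2 and UGT78D2 differed by -0.14 and -0.09 (adjusted p = 0.054 and 0.48). The photosynthesis genes LHCB4.1 and RCA fell on medium too, by 0.57 and 0.45 (adjusted p = 6.6e-08 and 1.8e-05, limma). Root marker PYK10 went the other way, higher on medium by 5.84 (adjusted p = 2e-18). The part of these markers in the members' differences was not tested. The 3'/5' ratios of ubiquitin and actin given above, lower on medium with overlap for actin alone, moved with this comparison too. Their part in the differences was not tested.

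**Figure D4:**
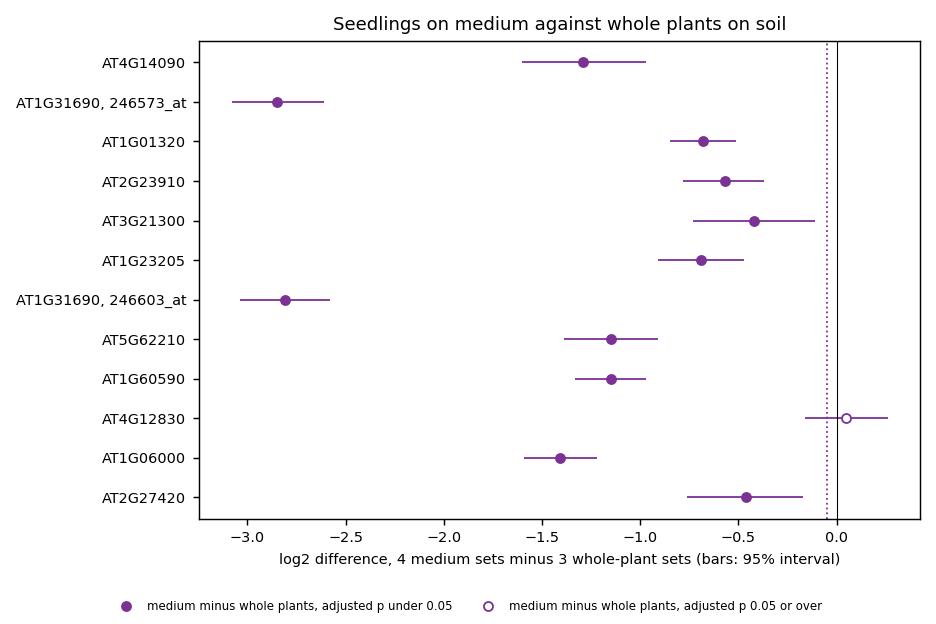
Log2 difference of each probe set between the mean of the 4 medium sets and that of the 3 whole-plant sets (horizontal axis), with 95% intervals, filled points for an adjusted p under 0.05 and a dotted line at the median of all probe sets tested, -0.05. The points of 11 members lie left of 0, both of AT1G31690 near -2.8, and AT4G12830 is at 0.05.

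Several members were higher with sucrose in the medium, and none was lower. In set 97, with 5% sucrose, 6 of the 12 probe sets were higher than in set 96 and 0 were lower, where 20.9% of all probe sets tested were higher and 12.1% lower (16.5% and 14.4% after quantile normalization). The median member difference was 0.47, against 0.08 over all tested. The actin 3'/5' ratio was 3.5 to 4.22 in set 97 and 2.26 to 6.09 in set 96. ICL, from the seed marker list, fell by 1.95 with sucrose in this pair (adjusted p = 1.2e-10, limma), and its part in the members' differences was not tested. AT1G06000 read 135, 124 and 133 in set 97, against 57, 49 and 51.4 in set 96, a difference of 1.22 (0.88 to 1.56, adjusted p = 8.7e-06, limma). AT2G23910 read 58.4, 53.7 and 57.1 in set 97, against 20.5, 22 and 19.1 in set 96, a difference of 1.21 (0.83 to 1.59, adjusted p = 3.3e-05).

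AT1G60590 read 59.8, 50.5 and 49.4 in set 97, against 19.9, 23.7 and 23.9 in set 96, a difference of 1.03 (0.70 to 1.37, adjusted p = 4.5e-05). AT5G62210 averaged 35.7 ± 4.41 in set 97 and 18.1 ± 3.79 in set 96, a difference of 0.77 (adjusted p = 0.008). For these 4 genes the sucrose arrays all lay above the sugar-free ones, as they did for the next 2 probe sets and for 32.2% of all probe sets tested.

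The remaining 2 calls were less firm. Probe set 246603_at of AT1G31690 averaged 27.7 ± 2.28 in set 97 and 14.9 ± 3.07 in set 96, a difference of 0.68 (adjusted p = 0.015). Its call was lost after quantile normalization, with 4 times the pseudocount and without array A of set 97 or of set 96, at an adjusted p of 0.053 to 0.078. AT1G23205 averaged 50.8 ± 4 in set 97 and 31.4 ± 3.1 in set 96, a difference of 0.60 (adjusted p = 0.025). It lost its call after quantile normalization and without array B or C of set 97 or array B of set 96, at an adjusted p of 0.055 to 0.089. The other probe set of AT1G31690, near the floor, differed by 0.13 (-0.30 to 0.56, adjusted p = 0.67).

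In set ATGE_101, with 5% sucrose, 4 of the 12 probe sets were higher than in set 100 and 0 were lower, where 9.9% of all tested were higher and 6.77% lower (8.13% and 8.32% with the arrays at a common 75th percentile). The median member difference was 0.37, against 0.03 over all tested. AT1G06000 read 100, 104 and 106 in set ATGE_101, against 37.7, 36.1 and 34.2 in set 100, a difference of 1.36 (1.02 to 1.71, adjusted p = 6.3e-06, limma). AT1G60590 read 48.2, 44.9 and 44.6 in set ATGE_101, against 22.3, 20.2 and 24.1 in set 100, a difference of 0.86 (0.53 to 1.20, adjusted p = 0.00067). By mean intensity, both genes more than doubled with sucrose in either pair. On the log2 scale with the pseudocount, the rise of AT1G60590 in set ATGE_101 over set 100 was 1.82-fold. The 3'/5' ratio of actin moved with this pair, at 8.14 to 8.94 in set ATGE_101 and 3.1 to 4.51 in set 100, and its part was not tested.

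AT2G27420 averaged 25.6 ± 3.25 in set ATGE_101 and 11.1 ± 1.59 in set 100, a difference of 0.86 (adjusted p = 0.03). That call was lost when any array of either set was left out, at an adjusted p of 0.051 to 0.097, with 4 times the pseudocount (adjusted p = 0.053) and without a filter (adjusted p = 0.052). AT5G62210 averaged 113 ± 8.37 in set ATGE_101 and 66.3 ± 4.26 in set 100, a difference of 0.71 (adjusted p = 0.025). It lost its call without any 1 array of set 100 or without array B or C of set ATGE_101, at an adjusted p of 0.05 to 0.089. AT2G23910 differed by 0.47 in this pair (0.08 to 0.85, adjusted p = 0.088), although its sucrose arrays all lay above the sugar-free ones, and 5 of the 12 probe sets were separated in that way, against 22.7% of all tested.

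AT1G06000, AT1G60590 and AT5G62210 were higher with sucrose in both pairs, where 5.42% of all probe sets tested were. A further 3 probe sets were called in the first pair alone, 1 in the second alone and 5 in neither. The neither group held AT4G14090, the member probe set of AT1G01320, AT3G21300, AT4G12830 and probe set 246573_at of AT1G31690. For AT1G01320 the member probe set differed by 0.13 in set 97 against 96 (-0.18 to 0.44, adjusted p = 0.53, limma). The second probe set of that gene, 261053_at, was called higher there, by 0.28 (adjusted p = 0.018). In set ATGE_101 against 100 the second probe set differed by 0.05 (adjusted p = 0.75). AT4G12830 differed by 0.02 in set 97 against 96 and by -0.34 in set ATGE_101 against 100 (adjusted p = 0.95 and 0.25). AT4G14090, at 12.4 or below on every medium array, differed by -0.02 and 0.45 (adjusted p = 0.96 and 0.32), values that the low level makes imprecise.

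The difference between the sucrose responses of the pairs was tested for each member. Of the 12 probe sets 0 passed (limma), where 5.37% of all tested were called higher and 6.62% lower. At the looser threshold of an unadjusted p under 0.05 (limma) there was 1, and the share of all tested at that threshold was not counted. The lowest value was that of AT2G23910, -0.74 (-1.28 to -0.21, adjusted p = 0.065), and that gene passed when only the 4 medium sets were fitted (adjusted p = 0.0071) and without array A of set ATGE_101 (adjusted p = 0.045). For AT1G06000 the difference was 0.15 (-0.34 to 0.63) and for AT1G60590 -0.17 (-0.64 to 0.30).

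**Figure D5:**
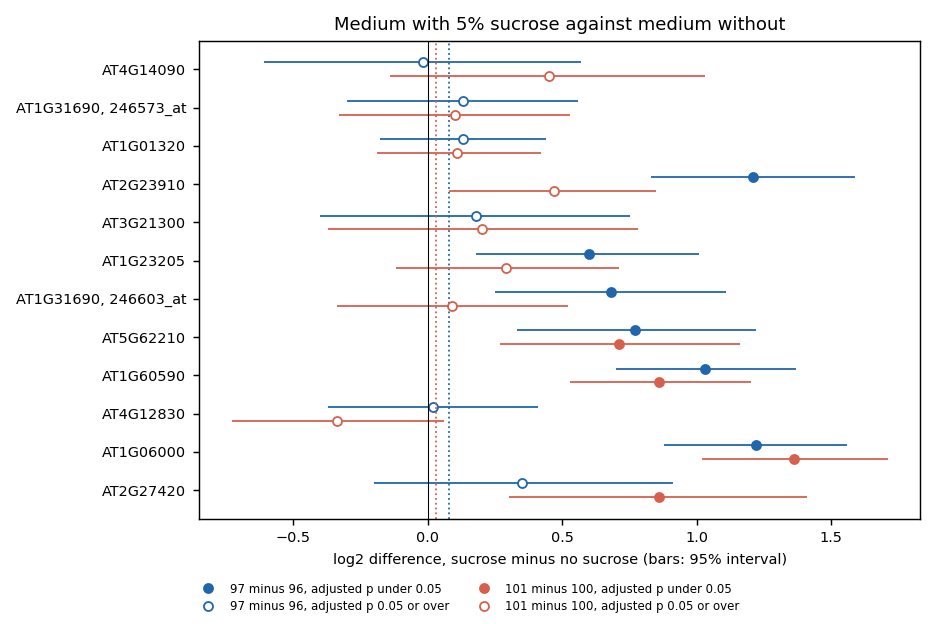
Log2 difference of each probe set between sucrose and sugar-free medium (horizontal axis) in sets 97 minus 96 (blue) and ATGE_101 minus 100 (red), with 95% intervals, filled points for an adjusted p under 0.05 and dotted lines at the medians of all probe sets tested. AT1G06000, AT1G60590 and AT5G62210 have filled points in both colours, and no filled point lies left of 0.

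Between the medium pairs, AT5G62210 was the member with a call in the same direction with and without sucrose. It averaged 66.3 ± 4.26 in set 100 and 18.1 ± 3.79 in set 96, a difference of 1.56 (1.12 to 2.01, adjusted p = 9.8e-06, limma). With sucrose it averaged 113 ± 8.37 in set ATGE_101 and 35.7 ± 4.41 in set 97, a difference of 1.5 (1.06 to 1.95, adjusted p = 1.3e-05). It was thus higher in the sets without the note on age, whether sucrose was present or not, and in both comparisons every array of the one set lay above every array of the other. Sets ATGE_101 and 100 differ from sets 97 and 96 in the labels only by that note, so what sets them apart is not given. Markers moved between them as well, given first for set 100 against 96 and then for set ATGE_101 against 97. ICL differed by -4.02 and -2.15, and SPCH, a factor of the stomatal lineage, by -1.48 and -2.11. PYK10 differed by -0.91 and -1.40, and STZ, a stress zinc finger, by 1.65 and 1.19 (adjusted p at most 0.016 for all of these, limma). SPCH averaged 3.31 in set 100 and 2.64 in set ATGE_101, under the pseudocount of 6.75. FMA, a factor of guard cell fate in the same lineage, went the other way, by 0.26 and 0.31 (adjusted p = 0.052 and 0.018, limma). Actin's 3'/5' ratio was 8.14 to 8.94 in set ATGE_101 and 3.5 to 4.22 in set 97. The part of these in the members' differences was not tested.

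In set 100 against set 96, 2 of the 12 probe sets were higher and 1 was lower, where 17.7% and 12.7% of all tested were. The other higher one was AT2G23910, at 31.9 ± 4.94 in set 100 and 20.6 ± 1.47 in set 96 (difference 0.49, adjusted p = 0.047), a call lost under 12 of 17 alternatives. The lower one was AT1G06000, at 36 ± 1.76 in set 100 and 52.5 ± 4.1 in set 96 (difference -0.47, adjusted p = 0.035), which lost its call without any 1 of the 6 arrays (adjusted p = 0.052 to 0.12). Without array A of set 100, AT3G21300 was called lower as well (-0.84, adjusted p = 0.028).

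In set ATGE_101 against set 97, 1 probe set was higher, that of AT5G62210, and 1 was lower, where 19.1% and 17.7% of all tested were. The lower one was 246603_at of AT1G31690, at 14.6 ± 2.58 in set ATGE_101 and 27.7 ± 2.28 in set 97 (difference -0.70, adjusted p = 0.011), a call lost with 4 times the pseudocount (adjusted p = 0.063). AT4G12830 averaged 75.5 ± 16.1 in set ATGE_101 and 105 ± 2.77 in set 97 (difference -0.46, adjusted p = 0.063). It passed without array A of set ATGE_101 (-0.59, adjusted p = 0.034) and after quantile normalization (-0.53, adjusted p = 0.034).

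Among the whole plants, array A of set 23 was the lowest of its 3 arrays for 10 of the 12 members. Array C was the highest for 9. Set 23 was the next highest set for 8 members, so a low array in it helped a probe set to meet the rule. The same order was not counted over all probe sets, and nothing is read from it. In set 22 against the mean of sets 24 and 23, 2 members were lower and 0 were higher, where 9.89% of all tested were lower and 7.69% higher. AT2G27420 averaged 17.2 ± 7.41 in set 22, 22.9 ± 5.19 in set 24 and 50.9 ± 27.6 in set 23, a difference of -0.77 (adjusted p = 0.023, limma). AT1G06000 averaged 165 ± 29.3 in set 22, 211 ± 32.7 in set 24 and 249 ± 76.7 in set 23, a difference of -0.44 (adjusted p = 0.035). Arrays of set 22 overlapped those of the other 2 sets for both genes. The call of AT1G06000 was lost under 10 of 20 alternatives, and that of AT2G27420 under 3 of 20. Both calls were lost when only the whole plants were fitted (adjusted p = 0.15 and 0.22), without array C of set 22 (adjusted p = 0.16 and 0.12), and without arrays A of sets ATGE_101, 100 and 24 together (adjusted p = 0.066 and 0.094).

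In set 24 against set 23, 0 members passed (limma), where 0.42% of all tested were called higher and 0.433% lower. At the looser threshold of an unadjusted p under 0.05 (limma) there were 5 members. The share of all tested at that threshold was not counted, so nothing is read from the 5. The lowest adjusted p were those of AT1G60590, at 71.7 ± 16.7 in set 24 and 119 ± 38.9 in set 23 (difference -0.66, adjusted p = 0.054), and of probe set 246573_at of AT1G31690, at 34.5 ± 13.8 in set 24 and 66.4 ± 22 in set 23 (difference -0.85, adjusted p = 0.055). For both, and for probe set 246603_at of AT1G31690, each array of set 24 lay below each of set 23. The share of all tested that were separated in this way was not counted, so nothing is read from it. Without array A of set 23, 4 probe sets were called lower: both of AT1G31690, AT2G23910 and AT2G27420 (adjusted p = 0.02 to 0.032). AT5G62210, AT4G12830 and AT1G01320 differed by 0.03, 0.15 and -0.08 between these sets, each with an interval that included 0.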

How the data were processed

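The authors deposited linear intensity values, 1 per probe set and array, made with MAS5 per the submitters' processing notes (version not given in the sources used here). The 2% trimmed mean of every array was 100, so the authors had scaled the arrays alike. Intensities were taken to log2 after adding 6.75, the 20th percentile, without further normalization, which understates the differences of dim genes. Probe sets above 22.9 on at least 3 arrays were tested, 15471 in all, and all 12 members passed without counting the arrays of set 7. limma 3.58.1 (R 4.3.3) fitted the 8 set means to all 24 arrays, with p-values adjusted by Benjamini-Hochberg over all tested. A call is an adjusted p under 0.05, and differences are the set named first minus the other. The number of arrays limits the precision.

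Python 3.11.15 applied the member rule and drew the plots. All members are named, with the 3 nearest the threshold on either side and the 6 genes with a symbol that meet the rule. The members and lists were chosen with earlier results of these data known. Of 182 loci in 14 marker lists 17 had a probe set annotated to them alone and are called measured. Locus IDs were looked up in a TAIR10.1 gene table, which held all 11 and a symbol for 0. No sequence is printed and a planned search of promoters was not run, since no sequence table was used here. On simulated data for sets 97 and 96 the fit recovered 56.3%, 96%, 100% and 100% of changes of 0.5, 1, 2 and 3 (log2), with 5 false calls. Alternatives were the pseudocount, the filter, 2 normalizations, the arrays fitted, robust fitting with a trend, a block for the replicate letter, each array left out, and arrays A of sets ATGE_101, 100 and 24 left out together, the last chosen after seeing the data.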

Additional observations from a re-analysis of the deposited data

How the results depend on the processing

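Of 28 called differences of the members, 19 kept their call under every alternative tried. Over the 647 alternative values of these 28, 57 lost the call and 0 changed sign. All 11 calls of medium against whole plants held throughout. With the sets compared fitted alone, the difference of the sucrose responses had 2 called members. Set ATGE_101 against 97 then had 5, and set 22 against 24 and 23 had 0. Of all 15471 probe sets tested, 3076, 6480 and 1319 were called in these fits, against 1855, 5691 and 2720 with all 24 arrays fitted. For the other settings the counts of called members stand without those of all tested, and nothing is read from them. With 4 times the pseudocount, set 100 against 96 had 1, set 24 against 23 had 2, and the rule found 7 members. Without a filter, set 100 against 96 had 1 and set 22 against the others 1. At a common 75th percentile, set 22 had 1 and set 24 against 23 had 2, as it had after quantile normalization. It had 1 with a trend and robust fitting. Without arrays A of sets ATGE_101, 100 and 24 together, set 22 had 0 and set 24 against 23 had 1. A margin of 1 gave 80 members and of 2 gave 4. The cause was not tested. Leaving out 1 array at a time, the calls ranged from 5 to 6 for set 97 against 96, 2 to 3 for ATGE_101 against 100, 0 to 1 for the difference of the responses, 1 to 2 for 100 against 96, 2 to 3 for ATGE_101 against 97, 11 to 11 for medium against whole plants, 1 to 3 for set 22 and 0 to 4 for set 24 against 23. The rule then found 8 to 16 members, 8 of them without array A of set 23. Pairing by replicate letter was looked at: same-letter deviations correlated between -0.18 and 0.16 over 84 pairs of arrays, and 28 were the best match. That ran from 0 of 3, as for sets 24 and 23, to 3 of 3, as for sets ATGE_101 and 100 (r of 0.034 to 0.096). The pooled values do not settle whether single pairs of sets were matched. With the letter as a replicate block, set 100 against 96 had 2 called members and not 3, and no other count changed. After quantile normalization, the share of higher ones among all called probe sets was 53.4% and not 63.3% for set 97 against 96, and 48.3% and not 58.2% for 100 against 96. At a common 75th percentile it was 49.4% and not 59.4% for ATGE_101 against 100, and 35.2% and not 49.2% for 24 against 23. Members near the pseudocount, such as AT4G14090 and AT1G31690 on medium, have imprecise differences there.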

Other observations

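The intensities of the stomatal lineage genes FMA, SPCH and MUTE summed to 121 to 140.04 in set 7, 70.2 to 115 on medium and 60.1 to 79.8 in whole plants. SPCH, the factor that starts the stomatal lineage, averaged 55.7 in set 7 and at most 33.6 in another set. FMA, a factor of guard cell fate, went the other way against medium, at 63.5 in set 7 and 65.3 to 91.2 over the medium sets, with 45.4 to 53 over the whole-plant sets. Genes of touch, wounding and jasmonate, STZ, WRKY53 and PDF1.2, were lowest in set 7, at a sum of 39.5 to 43.6, against 548 to 1829 on medium and 125 to 1273 in whole plants. GI, a clock gene with a daily rhythm, was 38.3 to 44.6 in set 7, 86.4 to 124 on medium and 85.2 to 141 in whole plants. SAG101, a lipase-like protein linked to senescence, was 8.19 to 17.3 in set 7, 35.8 to 84.8 on medium and 30.4 to 85.6 in whole plants. The heat-shock gene ATHSP22.0 was at 20.4 or below on every array. None of the genes on the lists for flowers, salicylate defence, nutrient status, cell division and cuticle had a probe set annotated to it alone.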
